A study of Homo sapiens with 3 samples.

Results

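THP-1 is an established human cell line, grown from a monocytic leukemia, whose cells divide in suspension as monocyte precursors. Phorbol 12-myristate 13-acetate (PMA) makes them stop dividing, attach to plastic and take on features of macrophages, and this comparison set an array of cells labelled as differentiated for 3 days with PMA against an array of undifferentiated cells. Its members are the 54613 probe sets of the array other than the 62 controls, of 54675 in all. They were read in deposited MAS5 signal, a linear brightness per probe set, and 41091 of them were listed with exactly 1 gene, giving 19775 genes.

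The series held 3 arrays, and 2 of them entered this comparison. The undifferentiated cells had no PMA. The cells called PMA 3 days had 200 nM PMA for 24 h and then 3 days in medium without it, so that 4 days passed since the drug was first given. The third array, called PMA 8 days here as in its label, came from cells with 72 h in PMA and 5 days without it, and its values are printed beside the others where they add a reading. Cells grew in 96-well plates in 10% serum, and were moved to 2% serum for the last 16 h before harvest. Whether the undifferentiated cells had that change is not stated, so PMA, time in culture and serum cannot be told apart. Each condition was 1 array of 200 ng labelled RNA. Nothing can therefore be said of the spread between cultures, the conditions could not be compared by a test, and "higher" and "lower" below stand for 2 signals that differ 2-fold or more. In RNA from whole cultures, fewer cells of a type and less RNA per cell cannot be told apart.

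PMA stands in for diacylglycerol, the lipid messenger that recruits protein kinase C and the RASGRP exchange factors to membranes. Both feed the RAS and ERK pathway, which switches on immediate early genes such as those of the AP-1 factors, and in turn phosphatases and other inhibitors that damp the signal. In monocytic cells this goes along with exit from the cell cycle, loss of progenitor programs and growth of the lysosomal and adhesive apparatus of a macrophage.

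A gene was read by the probe set with the highest mean signal of all 3 arrays. Signals under a floor of 149.8, the median of all non-control values, were raised to it before a ratio was taken, and a gene counted as measured where either array exceeded that floor. In the text "a to b" gives signal units, undifferentiated to PMA 3 days. Where the other array lay at the floor the fold is a lower bound and is written as "at least". Of 13306 measured genes, 1383 (10.4%) were higher at PMA 3 days and 1429 (10.7%) were lower, and 7757 (58.3%) differed by less than 1.5-fold. Counts of list members given below are to be read against those 10.4% and 10.7%. At 4-fold the counts were 511 higher (3.84%) and 281 lower (2.11%), at 8-fold 187 and 74, at 16-fold 80 and 21, and at 64-fold 9 and 2. The counts in the 2 directions were near each other at 2-fold, while higher genes outnumbered lower ones at each of the steeper folds listed. At 2-fold 49.2% of the calls were higher, and the share was 28.8% with scaling to the poly-A labelling controls and 58.6% when the median gene was set to 0. As deposited, the median gene had a log2 ratio of -0.12.

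Both arrays had a trimmed mean of 1000, with 51.4% (undifferentiated) and 48.5% (PMA 3 days) of probe sets above the floor. The 3' to 5' signal ratio of actin was 1.37 and 1.36, and that of GAPDH 1.16 and 1.10, in the same order. The 24 poly-A control probe sets, from transcripts added before labelling, had a median log2 ratio of 0.31 (lowest -0.28, highest 0.73), and the 18 hybridization controls one of -0.10. With ratios set to the poly-A controls the calls divide as given above. Probe sets of the same gene gave the only measure of error: over 5359 genes with several of them the pooled SD of a log2 ratio was 0.44, with 0.50 for dim, 0.44 for middle and 0.37 for bright genes. Of 720 higher genes with several informative probe sets, 600 had every one on the same side of 0, and of 669 lower genes 597 did. This spread holds differences between transcripts of a gene but no difference between cultures.

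**Figure D1:**
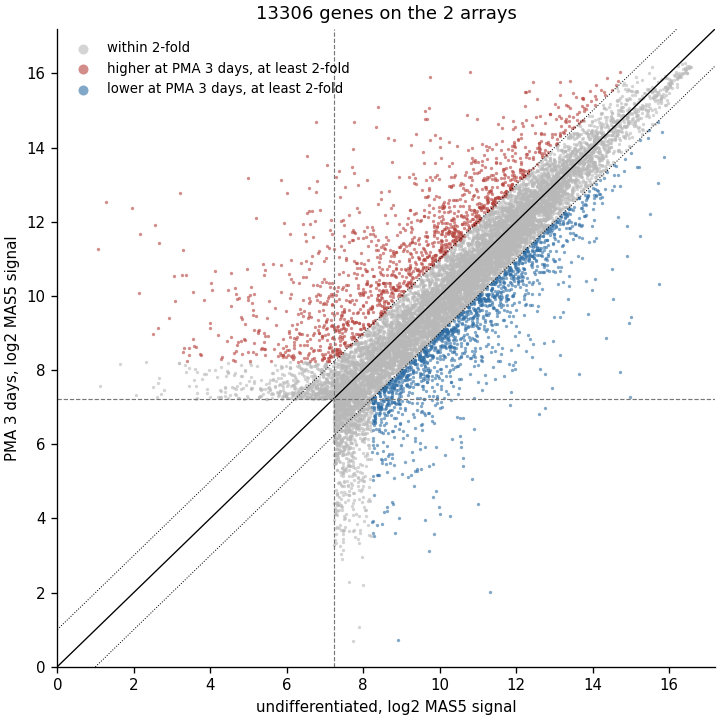
Each point is 1 of 13306 genes, with its log2 MAS5 signal on the undifferentiated array across and on the PMA 3 days array up. Dotted lines mark 2-fold, dashed lines the floor of 149.8, and the 1383 higher (red) and 1429 lower (blue) genes lie outside the dotted lines after signals under the floor are raised to it.

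The largest increases measured on both arrays belonged to genes of unlike roles. CD163, the haemoglobin scavenger receptor, read 218 undifferentiated, 26654 at PMA 3 days and 15456 at PMA 8 days (122-fold higher). FN1 (fibronectin) read 333 undifferentiated, 35009.7 at PMA 3 days and 45488 at PMA 8 days (105-fold higher). Probe sets marked _s_at or _x_at can read more than 1 transcript, and without them FN1 had a log2 ratio of 0.58. TDO2, which opens the tryptophan ring, read 325 undifferentiated, 24256 at PMA 3 days and 37188 at PMA 8 days (74.7-fold higher). The second-brightest probe set of TDO2 had a log2 ratio of 0.24. ADAMDEC1, a secreted metalloprotease, read 856 undifferentiated, 61553 at PMA 3 days and 58895 at PMA 8 days (71.9-fold higher). MTSS1, a membrane-bending actin regulator, read 819.8 undifferentiated, 28155 at PMA 3 days and 33154 at PMA 8 days, 34.3-fold higher at PMA 3 days by its brightest probe set. Over the 3 informative probe sets of MTSS1 log2 ratios ran from 0.33 to 5.10, with a median of 1.97. PINLYP, a secreted phospholipase inhibitor, read 789 undifferentiated, 27767 at PMA 3 days and 22197 at PMA 8 days, 35.2-fold higher. CYTIP, which binds cytohesins and takes part in leukocyte adhesion, read 662 undifferentiated, 21098 at PMA 3 days and 16827 at PMA 8 days, 31.8-fold higher. LOXL4, an enzyme that cross-links collagen and elastin, was 38.7-fold higher (168 to 6519 signal units), RIN2, an exchange factor for the endosomal GTPase RAB5, 34.9-fold higher (234 to 8160.1), and IGFBP3, which binds insulin-like growth factors in plasma, 28.8-fold higher (434 to 12496). DAPL1, a death-associated protein relative, was 32.4-fold higher (273 to 8869.8). Several others started under the floor. PRSS23, a secreted serine protease, read 95.4 undifferentiated, 7768 at PMA 3 days and 7416 at PMA 8 days, at least 51.9-fold higher. CHST15, which adds sulfate to chondroitin chains, read 64.6 undifferentiated, 7074 at PMA 3 days and 7276 at PMA 8 days, at least 47.2-fold higher. The second-brightest probe set of CHST15 had a log2 ratio of 0.22. CLMP, a junctional adhesion molecule, and TFPI2, an inhibitor of serine proteases in the matrix, were at least 39.8-fold and at least 35.7-fold higher, with undifferentiated signals of 2.41 and 3.89 near the bottom of the scale. GEM, a small GTPase of the RGK family, was at least 33.4-fold higher (101 to 5008), and CNIH3, a cargo and glutamate receptor partner, at least 32.4-fold higher (93.0 to 4848).

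The largest decreases measured on both arrays were headed by ELANE (neutrophil elastase) at 32064 undifferentiated, 156 at PMA 3 days and 199 at PMA 8 days (206-fold lower), close to the floor after PMA, and by granule and progenitor genes described with their lists. CACNA2D3, a calcium channel subunit, read 7855 undifferentiated, 182 at PMA 3 days and 273 at PMA 8 days (43.1-fold lower). PHACTR3, a phosphatase and actin regulator, read 6952 undifferentiated, 237 at PMA 3 days and 459.5 at PMA 8 days (29.3-fold lower). MS4A6A, a 4-pass membrane protein of monocytes, read 23873 undifferentiated, 963 at PMA 3 days and 801 at PMA 8 days, 24.8-fold lower. LAMP5, a relative of the lysosomal LAMP proteins, read 6360.2 undifferentiated, 262 at PMA 3 days and 245 at PMA 8 days, 24.3-fold lower. RXFP1, the receptor for the hormone relaxin, read 3739 undifferentiated, 169.5 at PMA 3 days and 421 at PMA 8 days, 22.1-fold lower. IRX3, a homeobox factor, was 14.2-fold lower (30555 to 2145). F13A1, the A chain of coagulation factor XIII and a gene of alternatively activated macrophages, was 18-fold lower (7925 to 441), MEST, an imprinted hydrolase gene, 16.6-fold lower (5476 to 329), and PRRG4, a membrane protein with a vitamin K-dependent domain, 16.1-fold lower (6844 to 425). CITED4, a coactivator partner of CBP and p300, was 14.4-fold lower, and NAPSB, a transcribed pseudogene of an aspartic protease, 14.9-fold lower. Genes under the floor after PMA included KIT, the stem cell factor receptor (1831 to 33.6, at least 12.2-fold lower), P2RY2, a nucleotide receptor (1518 to 60.7, at least 10.1-fold lower), and CCNA1, a cyclin of germ cells and leukemias (1510.1 to 66.8, at least 10.1-fold lower). At PMA 8 days KIT and CCNA1 read 259.8 and 266, above the floor again and below the undifferentiated signal. BMP8B, a bone morphogenetic protein gene, went from 15016 to 732 by its brightest probe set, while another of its probe sets differed by little: the lowest and highest log2 ratios among its 3 informative probe sets were -4.36 and -0.41.

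**Figure D2:**
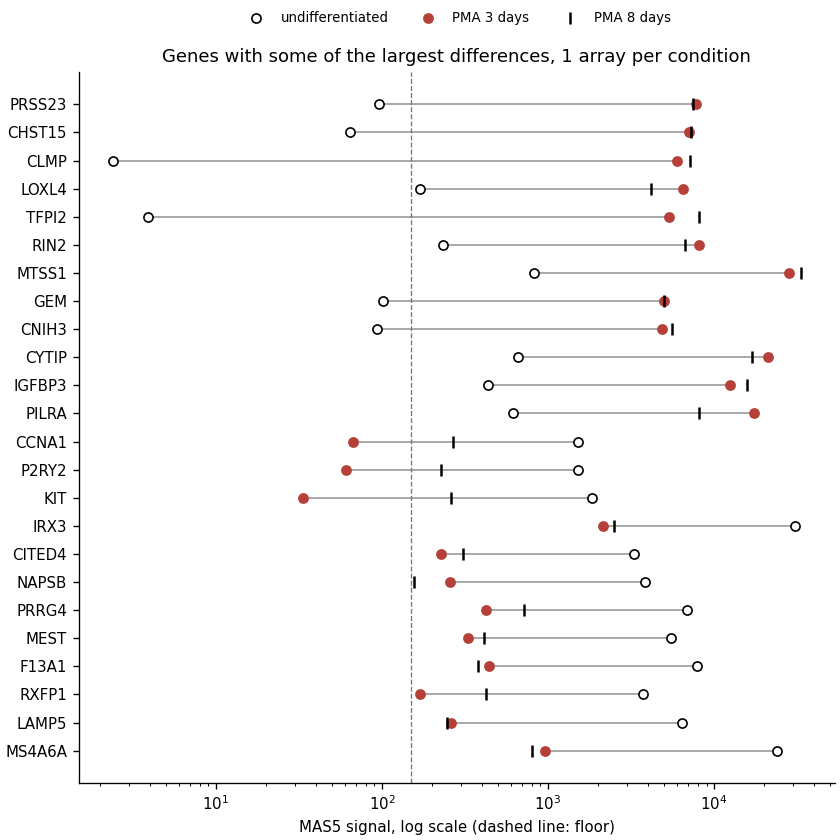
MAS5 signal on a log scale for 24 genes with some of the largest differences: open circles undifferentiated, filled circles PMA 3 days, vertical ticks PMA 8 days, and the floor dashed. In the 12 higher genes the PMA 8 days tick lies nearer the PMA 3 days circle than the undifferentiated one, and CLMP, TFPI2, CHST15, CNIH3, PRSS23 and GEM begin left of the floor.

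Genes for the proteins that PMA binds, and for the kinases that clear diacylglycerol, went both ways. Of 26 listed protein kinase C, RASGRP and diacylglycerol kinase genes 23 were measured; 3 were higher and 5 lower, with a median log2 ratio of -0.46. Among the kinases PRKCB read 8399 undifferentiated, 4140.1 at PMA 3 days and 4489.8 at PMA 8 days (2.03-fold lower). With the median gene set to 0 PRKCB had a log2 ratio of -0.90, within 2-fold. PRKCA read 3838 undifferentiated, 1393 at PMA 3 days and 2083 at PMA 8 days (2.75-fold lower), although the second-brightest probe set of PRKCA had a log2 ratio of 0.02. PRKCD and PRKCE, kinases of the class that needs no calcium, had log2 ratios of -0.51 and -0.54 and were not past 2-fold. The exchange factors parted ways: RASGRP2 went from 3878 to 283 by its brightest probe set (13.7-fold lower), with a highest log2 ratio of -0.037 among its 3 informative ones, while RASGRP3 went from 172 to 841 (4.90-fold higher) and RASGRP1 from 10.9 to 387 (at least 2.58-fold higher).

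Days after the drug was withdrawn more immediate early genes were higher than lower, and most were within 2-fold. Of 22 measured members of 27 listed, 7 were higher and 1 lower (median log2 ratio 0.54). These are 31.8% and 4.55%, against 10.4% and 10.7% of all genes. CREM, a repressor and activator of the cAMP response, read 1027 undifferentiated, 16451 at PMA 3 days and 10563 at PMA 8 days, 16.0-fold higher. MAFF, a small MAF factor, was 7.25-fold higher (217 to 1577), and NR4A2, an orphan nuclear receptor, 5.13-fold higher (231 to 1186). FOS and KLF6 were 2.15-fold and 2.08-fold higher. EGR1 and JUNB, both classical first responders to PMA, had log2 ratios of -0.68 and 0.54, and JUN one of 0.67, all within 2-fold. FOSL1 was under the floor on both arrays of the comparison (29.5 and 28.0).

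Inhibitors of the kind that ERK signaling switches on were higher in many cases. Of 20 measured MAP kinase phosphatases and feedback inhibitors (20 listed) 10 were higher and 1 lower, with a median of 1.04. PHLDA1, a pleckstrin-homology protein induced by many stimuli, read 184 undifferentiated, 7803 at PMA 3 days and 12256 at PMA 8 days, 42.3-fold higher by its brightest probe set. Over the 6 informative probe sets of PHLDA1 the lowest log2 ratio was 0.245 and the median 3.13. DUSP1, which strips phosphate from p38 and JNK, read 354 undifferentiated, 7186 at PMA 3 days and 4128 at PMA 8 days, 20.3-fold higher by its brightest probe set; its other informative probe set had a log2 ratio of 0.13. DUSP6, the cytoplasmic ERK phosphatase, read 4551 undifferentiated, 25748 at PMA 3 days and 25495 at PMA 8 days (5.66-fold higher). SPRED1 and SPRY2, which restrain RAS and RAF, were 5.95-fold and 3.17-fold higher, and DUSP7, another ERK phosphatase, was 2.41-fold lower (4565 to 1894). None of the 18 measured genes for NF-kB subunits and inhibitors was past 2-fold on these arrays, and their median was 0.44; the nearest of the named ones was TNFAIP3 (A20, a brake on NF-kB), with 1860.3 to 3649.5 and a log2 ratio of 0.97, and NFKB1 and RELA read -0.06 and 0.10. Regulators of G-protein signaling, which speed up GTP hydrolysis by G-alpha subunits, held extremes of both directions. RGS1 read 109.7 undifferentiated, 26498 at PMA 3 days and 36970.0 at PMA 8 days (at least 177-fold higher). RGS2 read 1683 undifferentiated, 30161 at PMA 3 days and 22816 at PMA 8 days (17.9-fold higher). RGS18 read 9013 undifferentiated, 340.3 at PMA 3 days and 387 at PMA 8 days (26.5-fold lower) and RGS16 went from 728 to 282 (2.58-fold lower).

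Among transcription factors of the myeloid lineage, several of early progenitors were lower and several of macrophages were higher, as were MITF and TFE3 of lysosome biogenesis. Of 46 measured among 52 listed, 11 were higher (23.9%) and 13 lower (28.3%), against 10.4% and 10.7% of all genes (median -0.10). MYB, the factor that keeps progenitors dividing, read 32633 undifferentiated, 696 at PMA 3 days and 1074 at PMA 8 days, 46.9-fold lower. GFI1, a transcriptional repressor needed for granulocyte development, read 6206 undifferentiated, 113 at PMA 3 days and 349 at PMA 8 days, at least 41.4-fold lower. IRF8, which directs monocyte and dendritic cell fate, read 23399 undifferentiated, 1688 at PMA 3 days and 2199 at PMA 8 days, 13.9-fold lower. CEBPA and CEBPB, related leucine zipper factors, went opposite ways: CEBPA from 13606 to 2089.6 (6.51-fold lower) and CEBPB from 5963 to 16382 (2.75-fold higher). LMO2, an adaptor of blood stem cell complexes, was 5.91-fold lower (16748 to 2835), IKZF1 (Ikaros) 2.31-fold lower and GATA2 2.75-fold lower. On the other side MITF, a relative of the lysosomal regulator TFEB, was 11.2-fold higher (799.7 to 8939), TFE3, of the same family, 2.58-fold higher (1838 to 4736), and TFEB itself read 3059 to 3326, a log2 ratio of 0.12. MAF, which drives genes of resident macrophages, was 4.08-fold higher (1738 to 7089.5), BHLHE41 at least 29.5-fold higher (36.6 to 4418), ZEB1 4.12-fold higher and ETS1 2.62-fold higher. By their second-brightest probe sets TFE3, BHLHE41 and GATA2 had log2 ratios of 0.47, 0.61 and -0.89, within 2-fold. SPI1, the gene of PU.1, was dim by its probe set on both arrays (25.0 and 162).

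Stem cell genes included the surface receptors KIT and FLT3, both under the floor after PMA; FLT3 went from 1478 to 105 (at least 9.86-fold lower). BCL11A, a repressor of early B and stem cells, was 4.81-fold lower (6220.5 to 1294), and CDK6 2.72-fold lower (20460.4 to 7509.7). HMGA2, a chromatin protein of embryonic cells, went from 9.78 to 2395 by its brightest probe set (at least 16.0-fold higher), while its other informative probe set had a log2 ratio of 0.028. IGF2BP3, an RNA-binding protein, was 3.72-fold higher (608 to 2261) by its brightest, with -0.28 as the lowest log2 ratio among its 4 informative probe sets. 5 of 12 measured members were lower and 2 higher, of 25 listed. In the MYC network MYC itself read 9225 undifferentiated, 1767 at PMA 3 days and 2453 at PMA 8 days (5.22-fold lower). MXD1 read 475 undifferentiated, 3224 at PMA 3 days and 1898 at PMA 8 days (6.78-fold higher), while MXD3, a member seen in dividing cells, was 3.43-fold lower.

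The list of neutrophil-type granule proteins, which also holds MS4A3, PLAC8 and CFD, had the lowest median of all lists, -3.45. Of its 14 measured members 9 were lower (64.3%, against 10.7% of all genes) and 0 higher (23 listed). AZU1, an antimicrobial protease relative, went from 12788 to 239 (53.4-fold lower), CTSG (cathepsin G) from 54870.4 to 1274 (43.1-fold lower), MS4A3, a marker of granulocyte and monocyte progenitors, from 6936 to 125 (at least 46.3-fold lower) and PLAC8 from 38697 to 3128 (12.4-fold lower). RNASE2, an eosinophil-type ribonuclease, kept a signal of 8458 from 53688 (6.35-fold lower). MPO, the peroxidase of these granules, was dim before PMA, at 277, and under the floor after it at 14.

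Genes of DNA replication and mitosis were lower in large number. Among genes for mitotic kinases, motors and the spindle 36 of 42 measured were lower and 0 higher (42 listed, median -1.49), against 10.7% lower among all genes. Kinetochore genes gave 21 of 37 lower (median -1.25), replication genes 25 of 54 (median -0.92), cyclin, CDK and E2F genes 16 of 37 (median -0.92) and recombination and mismatch repair genes 10 of 29 (median -0.82), with 0 higher in each. Folds were moderate: the lowest log2 ratio in the mitotic list was -2.67, of KIF20A, a cytokinesis motor, which read 5495 undifferentiated, 862 at PMA 3 days and 1772 at PMA 8 days. ASPM, a spindle pole protein, read 12899.7 undifferentiated, 3084 at PMA 3 days and 6985 at PMA 8 days (4.18-fold lower). PLK4, the kinase of centriole duplication, read 5468 undifferentiated, 1288 at PMA 3 days and 2599 at PMA 8 days (4.25-fold lower). MKI67, the Ki-67 antigen, read 4819 undifferentiated, 1581 at PMA 3 days and 2739 at PMA 8 days (3.05-fold lower). TOP2A and CDK1 kept signals of 6488 and 7404 at PMA 3 days, from 19329 and 23218. In replication MCM7, a subunit of the helicase, was 4.16-fold lower (8228 to 1976), CDC45, its partner, 4.13-fold lower (2267 to 549), and PCNA, the sliding clamp, 2.01-fold lower (12851 to 6381). With the median gene set to 0 PCNA had a log2 ratio of -0.89, within 2-fold. MYBL2 and FOXM1, which drive late cell cycle genes, were 4.82-fold and 3.53-fold lower, and RAD54L, a recombination motor, 5.38-fold lower. E2F1 was dim and near level (log2 ratio -0.15).

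Promoters of late cell cycle genes often hold a cell cycle homology region (CHR), a short element bound by the DREAM and MYB-MuvB complexes. The letters TTTGAA, read on both strands of the 250 bases before the start, were found in 56.8% of 37 mitotic genes with a promoter in the RefSeq table, and in 61.3% of the 31 called lower, against 13.6% of 27305 promoters in that table and 9.11% of 10754 measured genes. CCAAT, the NF-Y box, was in 75.7% of the mitotic genes and 33.0% of all promoters. Mitotic members were lower with and without these letters, and a match is a description of the sequence and not a measured site. Both elements can be seen in stretches of 80 bases from the genes of CDC20, the activator of the anaphase-promoting complex (27048 to 8059, 3.36-fold lower), and PLK1, a mitotic kinase (551 to 193, 2.85-fold lower). They lie at chr1:43358879-43358958 (plus strand) and chr16:23678809-23678888 (plus strand) in GRCh38.p14, 5′ to 3′ on the gene's strand, with the CHR letters in capitals and the CCAAT letters, in either orientation, in lower case.
CDC20: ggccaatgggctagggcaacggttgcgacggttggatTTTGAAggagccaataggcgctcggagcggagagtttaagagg
PLK1: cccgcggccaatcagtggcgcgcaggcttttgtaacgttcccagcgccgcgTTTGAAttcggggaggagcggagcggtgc

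Genes that hold cells out of the cycle went both ways. Of 17 measured (20 listed) 4 were higher (23.5%) and 3 lower (17.6%), against 10.4% and 10.7% of all genes. CDKN1A (p21) read 1601 undifferentiated, 6941 at PMA 3 days and 9286 at PMA 8 days (4.34-fold higher). CDKN1C (p57) read 531 undifferentiated, 2769.8 at PMA 3 days and 1338 at PMA 8 days (5.21-fold higher). BTG1 and TOB1, related antiproliferative proteins, were 3.46-fold and 3.60-fold higher (12195 to 42187 and 10162 to 36566). CDKN1B (p27) had a log2 ratio of -0.43 and RB1 one of 0.81.

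Several histone genes were higher. 10 of 21 measured members were higher and 3 lower (36 listed, median 0.99). H2AC6 read 770.3 undifferentiated, 12381 at PMA 3 days and 9059 at PMA 8 days (16.1-fold higher). H2BC12 read 3149 undifferentiated, 23760.0 at PMA 3 days and 21122 at PMA 8 days (7.54-fold higher). H1-2 read 393 undifferentiated, 4009 at PMA 3 days and 5415 at PMA 8 days (10.2-fold higher). H2BC21 read 401 undifferentiated, 2888 at PMA 3 days and 2313 at PMA 8 days (7.21-fold higher). The lower members were H2AX, H2AZ2 and H1-10, from 9990.1 to 4738, 24045 to 11923 and 3364 to 1621. With the median gene set to 0 their log2 ratios were -0.96, -0.89 and -0.93, within 2-fold. Core histone genes are near-identical in sequence, so how much each probe set reads its own gene is uncertain. Most replication histone transcripts end without a poly-A tail, and the labels do not say by which primer RNA was labelled.

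Among genes that supply growth, the shifts were broad and small. The 35 measured ribosomal proteins had 0 higher and 0 lower members at 2-fold and lay between -0.67 and 0.20 in log2 ratio, with a median of -0.37; under poly-A scaling that median was -0.68 and with the median gene at 0 it was -0.25. RPL3 read 63365 undifferentiated, 39946 at PMA 3 days and 37232 at PMA 8 days. Ribosome biogenesis genes had 4 of 41 lower (9.76%, against 10.7% of all genes) and a median of -0.54; FBL, the methyltransferase of box C/D particles, was 2.74-fold lower (13737 to 5019.8) and NCL (nucleolin) read -0.77 in log2 ratio. Of 35 nucleotide and one-carbon genes 9 were lower and 0 higher: SLC19A1, the folate carrier, was 3.98-fold lower, IMPDH2, which makes guanine nucleotides, 2.43-fold lower, and TYMS, thymidylate synthase, 2.20-fold lower with 14812 signal units left. Of 39 nuclear pore and transport genes 4 were lower (10.3%, near the share of all genes), among them NUP210, a pore membrane protein (4065 to 585, 6.95-fold lower). Oxidative phosphorylation subunits were near level, with 1 of 48 past 2-fold and a median of -0.11 (0.01 with the median gene at 0), and so were aminoacyl-tRNA synthetases apart from WARS1, an interferon-responsive one (2.98-fold higher), and VARS1 (2.87-fold lower).

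**Figure D3:**
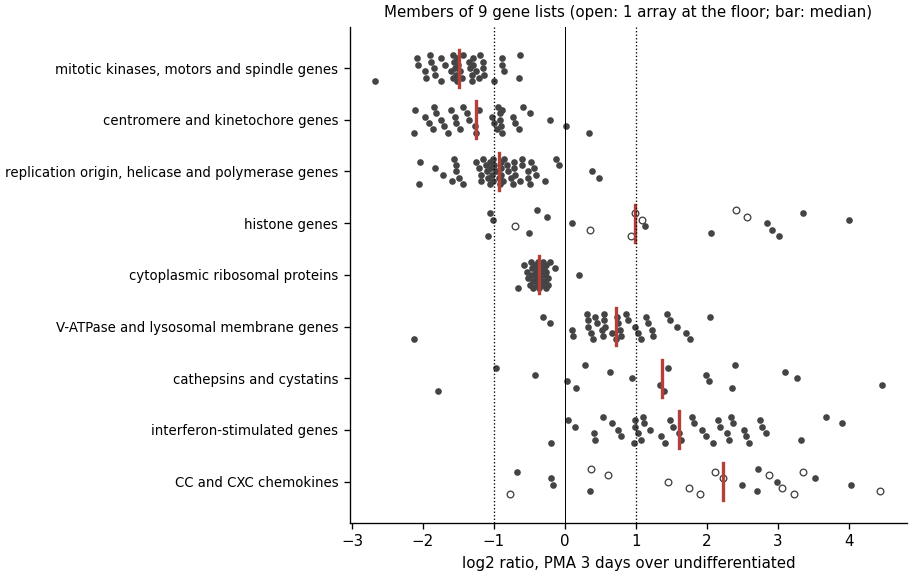
Log2 ratio of PMA 3 days over undifferentiated for each measured member of 9 gene lists, with open points where 1 array lay at the floor, a red bar at the median and dotted lines at 2-fold. The 35 ribosomal proteins span a narrow range around -0.37, mitotic genes lie around -1.49 and chemokines spread widely around 2.23.

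Many genes of the lysosome were higher. Among cathepsins and cystatins 10 of 18 measured were higher and 1 lower (20 listed, median 1.37), among soluble hydrolases 14 of 29 and 0 (median 0.88), and among V-ATPase and lysosomal membrane genes 12 of 38 and 1 (median 0.73). CTSK, the collagen-cutting cathepsin of osteoclasts, read 854 undifferentiated, 18852 at PMA 3 days and 12514 at PMA 8 days (22.1-fold higher). CTSL read 4808 undifferentiated, 46486 at PMA 3 days and 41982 at PMA 8 days (9.67-fold higher). CTSB read 10952 undifferentiated, 57455 at PMA 3 days and 55748 at PMA 8 days (5.25-fold higher). CTSD, the aspartic one, read 595 undifferentiated, 5137 at PMA 3 days and 5513 at PMA 8 days (8.63-fold higher). LGMN, which matures cathepsins, was 5.11-fold higher (532 to 2719.6), and CST3 (cystatin C), which inhibits them, was 3.46-fold lower (11576 to 3345). Of the hydrolases SGSH, which degrades heparan sulfate, was 6.09-fold higher (270.0 to 1643), GALC, for galactosylceramide, 4.40-fold higher (4445 to 19572), GM2A, a ganglioside activator, 4.32-fold higher (3906 to 16882), and ASAH1, acid ceramidase, 3.01-fold higher to 52425. In the membrane SCARB2, the carrier of glucocerebrosidase, was 4.12-fold higher, ATP6AP1, a pump accessory subunit, 3.38-fold higher, and MCOLN1, a calcium channel, 2.21-fold higher (425 to 941), whereas its relative MCOLN2 was 4.36-fold lower (8838 to 2027). LAMP1 and LAMP2, the main lysosomal membrane proteins, had log2 ratios of 0.31 and 0.37. Autophagy genes had 5 of 33 higher (15.2%, against 10.4% of all genes) and 1 lower. Their median was 0.30, and -0.0046 under poly-A scaling. WIPI1, a phosphoinositide binder of forming autophagosomes, was 10.2-fold higher (969 to 9841), SQSTM1 (p62) 2.85-fold higher and MAP1LC3B 2.62-fold higher. By the median over its probe sets SQSTM1 had a log2 ratio of 0.03.

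TFEB, TFE3 and MITF bind the CLEAR element found before many lysosomal genes. Its core TCACGTG, read on both strands, contains the E-box CACGTG and stood in the 250 bases before the start of 3 of 24 hydrolase genes (12.5%), and in 3.38% of all promoters and 5.22% of measured genes. Among genes called higher the share was 5.06%, among lower ones 4.47%. Of the 11 hydrolase genes called higher with a promoter given, 1 held it (9.09%). The genes shown next were chosen by hand, and CTSD comes from the cathepsin list and not from the hydrolases counted. The stretches below show the letters in capitals for CTSD, NEU1, lysosomal sialidase (3219.6 to 10949, 3.40-fold higher), and MCOLN1, which holds 2 matches. In GRCh38.p14 they lie at chr11:1763932-1764011 (minus strand), chr6:31862906-31862985 (minus strand) and chr19:7522544-7522623 (plus strand).
CTSD: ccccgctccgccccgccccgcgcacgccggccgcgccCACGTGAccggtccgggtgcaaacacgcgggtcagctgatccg
NEU1: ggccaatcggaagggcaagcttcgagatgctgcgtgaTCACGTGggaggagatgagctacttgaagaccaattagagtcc
MCOLN1: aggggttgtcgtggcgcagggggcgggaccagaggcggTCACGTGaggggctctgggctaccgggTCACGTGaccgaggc

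Integrin and adhesion genes were higher in many cases, with exceptions by subunit. 11 of 20 measured integrin genes were higher and 1 lower (21 listed, median 1.10). ITGB5, which pairs with alpha V to bind vitronectin, read 631 undifferentiated, 10029.8 at PMA 3 days and 11784 at PMA 8 days (15.9-fold higher). ITGAV itself read 4901 undifferentiated, 13638 at PMA 3 days and 11319.6 at PMA 8 days (2.78-fold higher). ITGB8, another partner, read 9.57 undifferentiated, 1516 at PMA 3 days and 2597 at PMA 8 days (at least 10.1-fold higher). ITGB7, a lymphocyte homing subunit, was 6.65-fold higher (614 to 4084) and ITGA6, a laminin receptor subunit, 4.02-fold higher (492 to 1978). ITGB1 reached 46146 from 20172 (2.29-fold higher), ITGAL, of LFA-1, had a log2 ratio of -0.93, and ITGA7 was at least 6.12-fold lower (917 to 95.5). In focal adhesions and podosomes MYLK, the myosin light chain kinase, read 132 undifferentiated, 11769 at PMA 3 days and 14992 at PMA 8 days (at least 78.6-fold higher). FERMT2 (kindlin-2) read 157 undifferentiated, 9538 at PMA 3 days and 8969.8 at PMA 8 days (60.7-fold higher). VCL (vinculin) read 8927 undifferentiated, 29459.8 at PMA 3 days and 32321 at PMA 8 days (3.30-fold higher). PTK2 (FAK), the kinase of these sites, was 3.38-fold higher (585 to 1975), and FERMT1, a relative of FERMT2, went the other way (344 to 121, at least 2.30-fold lower). In this list 9 of 34 were higher (26.5%) and 5 lower (14.7%), against 10.4% and 10.7% of all genes.

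Among cytoskeletal genes some relatives went opposite ways. Of 37 actin, myosin and tropomyosin genes 12 were higher (32.4%) and 4 lower (10.8%), against 10.4% and 10.7% of all genes. ACTG2, an actin of smooth muscle, was 15.9-fold higher (215 to 3406), TPM2, a tropomyosin, 7.09-fold higher (2373 to 16824), and PLS3, an actin bundler, 6.94-fold higher (3882 to 26932), and the myosins MYO5A and MYO1E were 5.21-fold and 4.24-fold higher while MYH10 and MYO1G were 4.55-fold and 3.17-fold lower. TUBB2A was 7.22-fold higher (336 to 2425), while STMN1, a destabilizer of microtubules, and LMNB1, a nuclear lamin, were 3.57-fold and 4.45-fold lower. The tetraspanin CD9, a fusion and adhesion partner, was 6.22-fold higher (1663 to 10344) and TSPAN5 at least 5.14-fold lower (771 to 149.6).

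Receptors of the cell surface differed in both directions. Of 19 measured receptors for chemokines, formyl peptides and leukotrienes 7 were higher and 4 lower. CCR2, which draws monocytes out of the marrow, read 20869 undifferentiated, 468 at PMA 3 days and 541 at PMA 8 days (44.6-fold lower). CXCR2 read 3096 undifferentiated, 344 at PMA 3 days and 593 at PMA 8 days (8.99-fold lower). CX3CR1 read 9779 undifferentiated, 2329.9 at PMA 3 days and 3181 at PMA 8 days (4.20-fold lower). The second-brightest probe set of CX3CR1 had a log2 ratio of -0.59. CCR1, for several CC chemokines, had a log2 ratio of 0.94 (6879 to 13219), short of 2-fold. Among receptors for complement fragments and formyl peptides, C5AR1 read 116 undifferentiated, 5107 at PMA 3 days and 3500.2 at PMA 8 days (at least 34.1-fold higher). C3AR1 read 228 undifferentiated, 5267 at PMA 3 days and 3734 at PMA 8 days (23.1-fold higher). FPR1 read 837 undifferentiated, 7759 at PMA 3 days and 4237 at PMA 8 days (9.27-fold higher). FPR3 read 109.7 undifferentiated, 7203 at PMA 3 days and 3551 at PMA 8 days (at least 48.1-fold higher). Other G-protein-coupled receptors had 11 of 26 higher and 8 lower. GPR65, a proton sensor, was 10.2-fold higher (933 to 9532), GPR183, the oxysterol receptor, 6.16-fold higher (2849.9 to 17547), and GPR160 51.3-fold lower (31866 to 622). Purinergic genes included NT5E (CD73, which makes adenosine from AMP) at 199 undifferentiated, 4668 at PMA 3 days and 8062 at PMA 8 days (23.5-fold higher). ENTPD1 (CD39, the enzyme before it) read 1969.7 undifferentiated, 593 at PMA 3 days and 665 at PMA 8 days (3.32-fold lower), and P2RY8 went from 17021 to 1402 (12.1-fold lower).

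Scavenger receptors had 11 of 20 measured members higher and 2 lower (23 listed, median 1.25). MSR1, which takes up modified lipoproteins, read 86.5 undifferentiated, 3944 at PMA 3 days and 2588 at PMA 8 days (at least 26.3-fold higher). MERTK, for apoptotic cells, read 567 undifferentiated, 3964 at PMA 3 days and 5108 at PMA 8 days (6.99-fold higher). CD36 read 6366 undifferentiated, 29478 at PMA 3 days and 26126 at PMA 8 days (4.63-fold higher), while GAS6, the ligand of MERTK, was 2.85-fold lower (3133 to 1101). Among paired receptors PILRA, an inhibitory one for sialylated proteins, read 613 undifferentiated, 17288 at PMA 3 days and 8053 at PMA 8 days (28.2-fold higher). SIGLEC7 read 389 undifferentiated, 3078 at PMA 3 days and 2029.9 at PMA 8 days (7.92-fold higher). LILRA2, an activating one, read 6197 undifferentiated, 1067 at PMA 3 days and 806 at PMA 8 days (5.81-fold lower). TREM1 and TREM2, receptors that amplify or temper inflammation through TYROBP, were 11-fold and 4.56-fold higher (189 to 2083 and 4235 to 19297), and TYROBP 2.21-fold higher to 57252. C-type lectins went both ways: CLEC4A was 13.3-fold higher (261 to 3463) and CLEC12A, a monocyte and leukemic stem cell antigen, at least 6.84-fold lower (1025 to 17.5). Toll-like receptor genes had 8 of 22 higher and 4 lower. CD14, the endotoxin coreceptor, read 849.8 undifferentiated, 34195 at PMA 3 days and 22449 at PMA 8 days (40.2-fold higher). LY96 (MD-2), which holds endotoxin on TLR4, read 1036 undifferentiated, 19678 at PMA 3 days and 14555 at PMA 8 days (19.0-fold higher). TLR8, an RNA sensor of endosomes, was 8.12-fold higher (822 to 6670.1), and IRAK3, a brake on this pathway, 11.5-fold lower (5265 to 459.8).

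Of 54 growth factor and cytokine receptors 20 were higher and 7 lower. IL1R2, a decoy for interleukin-1, read 110.2 undifferentiated, 8799.8 at PMA 3 days and 5185 at PMA 8 days (at least 58.7-fold higher). IL1RAP, the chain that the signaling receptor needs, read 1915 undifferentiated, 278 at PMA 3 days and 225 at PMA 8 days (6.89-fold lower). NRP1, a coreceptor for semaphorins and VEGF, read 940.2 undifferentiated, 20653 at PMA 3 days and 16671 at PMA 8 days (22.0-fold higher). NRP2 read 23.4 undifferentiated, 1584 at PMA 3 days and 1562 at PMA 8 days by its brightest probe set (at least 10.6-fold higher). Over the 10 informative probe sets of NRP2 log2 ratios ran from 0.13 to 3.40, with a median of 1.04. Of the receptors for colony-stimulating factors CSF1R, for M-CSF, was 5.59-fold higher (1469 to 8209.9), whereas CSF2RA, the GM-CSF binding chain, and CSF3R, for G-CSF, were 3.74-fold and 2.71-fold lower (1507 to 403 and 1836 to 678). CSF2RB, the signaling chain beside CSF2RA, had a log2 ratio of 0.89 (3516 to 6493), short of 2-fold. IL6R was 3.91-fold lower (16675 to 4269) and IFNGR1, for interferon-gamma, 3.06-fold higher (13424 to 41079.5).

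Several secreted protease and matrix genes differed strongly. Of 27 measured metalloproteinase and ADAM genes 13 were higher and 0 lower (31 listed, median 0.89). MMP9, a gelatinase, read 1765 undifferentiated, 66826 at PMA 3 days and 72969 at PMA 8 days (37.9-fold higher). MMP12, the macrophage elastase, read 57.8 undifferentiated, 8913 at PMA 3 days and 10415 at PMA 8 days (at least 59.5-fold higher). MMP8, a collagenase, read 9.20 undifferentiated, 6957 at PMA 3 days and 7799 at PMA 8 days (at least 46.4-fold higher). MMP7 read 127 undifferentiated, 1966 at PMA 3 days and 5738 at PMA 8 days (at least 13.1-fold higher). MMP10 read 41.8 undifferentiated, 1849 at PMA 3 days and 2193 at PMA 8 days (at least 12.3-fold higher). ADAM9 and ADAM28, membrane sheddases, were 9.54-fold and 14.3-fold higher (4905 to 46777 and 649.7 to 9270.4). The AP-1 letters TGANTCA, where N is any base and either strand counts, stood in the 250 bases before the start of 6.60% of all promoters, 4.07% of measured genes, 7.08% of genes called higher and 3.94% of those called lower. MMP7 and MMP10 both held them at the same distance, the nearest base 61 before the start. Of the 20 immediate early genes with a promoter in the RefSeq table, 0 held the letters. The stretches of MMP7 and MMP10 were chosen by hand, and other metalloproteinase genes also started under the floor. They lie in GRCh38.p14 at chr11:102530772-102530851 (minus strand) and chr11:102780653-102780732 (minus strand), with the AP-1 letters in capitals.
MMP7: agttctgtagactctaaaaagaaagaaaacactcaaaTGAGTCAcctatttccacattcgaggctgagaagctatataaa
MMP10: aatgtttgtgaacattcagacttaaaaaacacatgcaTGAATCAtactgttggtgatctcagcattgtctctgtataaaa

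Inhibitors and activators of proteolysis stood beside them. PLAU, the urokinase plasminogen activator, read 2019.5 undifferentiated, 28169 at PMA 3 days and 28418 at PMA 8 days (13.9-fold higher). PLAUR, its receptor, read 2655 undifferentiated, 9186 at PMA 3 days and 6656 at PMA 8 days (3.46-fold higher). TFPI, which blocks tissue factor, was 47.0-fold higher (219 to 10268), while F3, tissue factor itself, was 2.61-fold lower (1993 to 765). TIMP1 and TIMP2, inhibitors of metalloproteinases, were 2.63-fold and 2.70-fold higher, and SLPI, an inhibitor of leukocyte elastase, was 12.7-fold lower (9605 to 758). A2M (alpha-2-macroglobulin) read 208 undifferentiated, 11359 at PMA 3 days and 13015 at PMA 8 days by its brightest probe set (54.7-fold higher), and its second-brightest had a log2 ratio of -0.28. Of 27 genes in that list 10 were higher and 6 lower. Matrix genes had 20 of 40 higher and 2 lower (median 1.01). COL6A3, a microfibrillar collagen chain, read 92.5 undifferentiated, 13938 at PMA 3 days and 17588 at PMA 8 days (at least 93.0-fold higher). COL6A1 read 1216 undifferentiated, 11576 at PMA 3 days and 10063 at PMA 8 days by its brightest probe set (9.52-fold higher). Over the 4 informative probe sets of COL6A1 log2 ratios ran from -0.16 to 3.25, with a median of 1.29. SPARC, a collagen-binding glycoprotein, read 106 undifferentiated, 4144 at PMA 3 days and 2114 at PMA 8 days (at least 27.7-fold higher). SPP1 (osteopontin) read 5195 undifferentiated, 46906 at PMA 3 days and 60401 at PMA 8 days (9.03-fold higher). VCAN, the versican of monocytes, was 5.83-fold lower (25969.9 to 4456).

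Chemokines were higher in 16 of 23 measured genes and lower in 0 (32 listed), with a median log2 ratio of 2.23. Attractants of neutrophils included CXCL2 (271 undifferentiated, 3105 at PMA 3 days and 1122 at PMA 8 days, 11.5-fold higher), CXCL8 (1006 undifferentiated, 6570.1 at PMA 3 days and 4491 at PMA 8 days, 6.53-fold higher) and PPBP, the precursor of a platelet chemokine (4.49 undifferentiated, 3249 at PMA 3 days and 5557 at PMA 8 days, at least 21.7-fold higher). The second-brightest probe set of CXCL2 had a log2 ratio of 0.39. CXCL1, CXCL2 and CXCL3 are near-identical, so their values are not independent readings. CXCL10, an interferon-induced attractant of T cells, read 208 undifferentiated, 3398 at PMA 3 days and 1234 at PMA 8 days (16.3-fold higher). CCL5 read 2201 undifferentiated, 17494 at PMA 3 days and 19389.6 at PMA 8 days (7.95-fold higher). CCL2 went from 257 to 84.1, a bound of -0.78 in log2 ratio that was not past 2-fold. Of 37 cytokines and growth factors 12 were higher and 1 lower: GDF15, a stress cytokine, was at least 8.11-fold higher (141 to 1215), HBEGF 4.52-fold higher (622 to 2812) and IL10 at least 3.28-fold higher (18.4 to 491). TNF read 417 to 569.9 and IL6 was under the floor on both arrays (38.9 and 65.8). Complement genes had 10 of 18 higher and 3 lower, with C1QA and C1QC, chains of the C1q recognition molecule, 4.11-fold and 6.20-fold higher, and CD55 and CD59, which shield the cell itself, 8.71-fold and 6.59-fold higher.

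In lipid metabolism several uptake, storage and export genes were higher and several synthesis genes lower. FABP4, a fatty acid carrier of macrophages and fat cells, read 784 undifferentiated, 32219 at PMA 3 days and 25441 at PMA 8 days (41.1-fold higher). PLIN2, of lipid droplets, read 9138 undifferentiated, 43589.9 at PMA 3 days and 33749.8 at PMA 8 days (4.77-fold higher). The second-brightest probe set of PLIN2 had a log2 ratio of 0.25. ABCA1, the cholesterol exporter, read 3903 undifferentiated, 18041 at PMA 3 days and 16591 at PMA 8 days (4.62-fold higher). APOE read 388 undifferentiated, 2682 at PMA 3 days and 3116 at PMA 8 days (6.91-fold higher). In the list of 38 genes 13 were higher and 6 lower. MYLIP (IDOL), which has the LDL receptor degraded, was 13.4-fold lower (4930.2 to 369) and CES1, a carboxylesterase, 8.07-fold lower (30745 to 3808). Of 29 sterol and fatty acid synthesis genes 6 were lower and 0 higher (median -0.61): SREBF1, the main regulator of fatty acid synthesis, was 3.98-fold lower (1777 to 446), FASN 3.13-fold lower and FADS2, a desaturase, 3.24-fold lower. Eicosanoid genes included ALOX5 (5-lipoxygenase) at 4809 undifferentiated, 36015 at PMA 3 days and 25398 at PMA 8 days (7.49-fold higher). PTGS1 (COX-1) read 3088 undifferentiated, 15634 at PMA 3 days and 16956 at PMA 8 days (5.06-fold higher). TBXAS1 (thromboxane synthase) read 549.5 undifferentiated, 3498 at PMA 3 days and 2366 at PMA 8 days (6.36-fold higher), while LTC4S, which makes leukotriene C4, was 2.89-fold lower (1624 to 562).

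Other metabolic genes with large differences were few within each pathway. In glucose metabolism PDK4, a pyruvate dehydrogenase kinase, was 9.94-fold higher (893 to 8884) and HK3, a myeloid hexokinase, at least 4.87-fold lower (729.5 to 39.9). Of 35 measured glycolysis and glucose transport genes 4 were higher and 4 lower (11.4% each, near the shares of all genes). SLC16A10, a carrier of aromatic amino acids counted in that list, was 17.7-fold higher (412 to 7295). Amino acid transporters had 11 of 24 higher and 3 lower: SLC7A7, an exporter of arginine and lysine, was 4.43-fold higher (3258 to 14425), and SLC6A8, the creatine carrier, 8.24-fold lower (4001 to 486). SAT1, which acetylates polyamines, was 6.73-fold higher (6010.2 to 40431). In defence against oxidants HMOX1 (heme oxygenase) read 445 undifferentiated, 18776 at PMA 3 days and 15509 at PMA 8 days (42.2-fold higher). GCLC, the first enzyme of glutathione synthesis, read 2942 undifferentiated, 25652 at PMA 3 days and 26553 at PMA 8 days (8.72-fold higher). NQO1 read 2818 undifferentiated, 12256 at PMA 3 days and 11649.9 at PMA 8 days (4.35-fold higher). SLC40A1 (ferroportin), the iron exporter, was 8.19-fold lower (3164 to 386). ABCC3, an organic anion pump, read 166 undifferentiated, 10629.9 at PMA 3 days and 8681 at PMA 8 days (64.2-fold higher). ABCG2, a drug pump of stem cells, read 181 undifferentiated, 3833 at PMA 3 days and 2207 at PMA 8 days (21.2-fold higher). DHRS9, a retinol dehydrogenase, read 26685 undifferentiated, 247 at PMA 3 days and 278 at PMA 8 days (108-fold lower).

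Metallothioneins, small proteins that bind zinc and copper, were lower together. MT1E read 16162 undifferentiated, 1152 at PMA 3 days and 1864 at PMA 8 days (14-fold lower). MT1F read 9641 undifferentiated, 1340.2 at PMA 3 days and 1814 at PMA 8 days (7.19-fold lower). MT1X read 9138 undifferentiated, 1645 at PMA 3 days and 2372 at PMA 8 days (5.56-fold lower). MT2A read 10968 undifferentiated, 4073 at PMA 3 days and 5148 at PMA 8 days (2.69-fold lower). With the zinc transporters 8 of 20 measured were lower and 1 higher, SLC30A4, a zinc exporter (253 to 865, 3.41-fold higher). The MT1 genes are near-identical, so probe sets may read several of them. The core of the metal response element was searched in 2 forms. The G form, TGCGCNC (N is any base, both strands), was found before 6 of 14 genes of the list that are in the promoter table (42.9%). It was found in 16.9% of all promoters, 25.5% of measured genes and 26.6% of genes called lower. In GRCh38.p14 the stretches before MT2A and MT1X lie at chr16:56608408-56608487 (plus strand) and chr16:56682380-56682459 (plus strand), with the G form in capitals, 2 copies in the first and 1 in the second.
MT2A: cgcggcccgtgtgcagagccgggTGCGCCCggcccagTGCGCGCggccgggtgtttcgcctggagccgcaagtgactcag
MT1X: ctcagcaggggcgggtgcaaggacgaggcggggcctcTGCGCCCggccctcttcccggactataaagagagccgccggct

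Interferon-stimulated genes were higher although interferon was no part of the treatment as labelled. Of 43 measured (44 listed) 31 were higher and 0 lower, with a median log2 ratio of 1.61, against 10.4% higher among all genes. IFIT1, which binds foreign RNA, read 1219.7 undifferentiated, 18254 at PMA 3 days and 9552 at PMA 8 days (15.0-fold higher). Its neighbours IFIT2 and IFIT3 were 12.8-fold (1050.4 to 13462) and 6.74-fold higher (1813 to 12212). All 3 had lower signals at PMA 8 days than at PMA 3 days, 9552, 4616 and 6727. IFI44 read 739 undifferentiated, 7387 at PMA 3 days and 4711 at PMA 8 days (10.0-fold higher). ISG15, a ubiquitin-like modifier, read 3154 undifferentiated, 18469 at PMA 3 days and 9453 at PMA 8 days (5.86-fold higher). EPSTI1 read 1864 undifferentiated, 12777 at PMA 3 days and 7279 at PMA 8 days (6.86-fold higher). The sensors RIGI and IFIH1 were 4.27-fold and 4.57-fold higher (1072 to 4574 and 1343 to 6138). Genes more typical of interferon-gamma had 11 of 22 higher and 0 lower; GBP1, a GTPase of vacuole defence, read 31.8 undifferentiated, 9291 at PMA 3 days and 8137 at PMA 8 days (at least 62.0-fold higher). Of the regulators, IRF9 had a log2 ratio of 0.79, IRF7 0.43 and IRF1 0.38, all within 2-fold, and IFNB1, the gene of interferon-beta, was under the floor on both arrays (5.11 and 9.11).

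The interferon-stimulated response element, GAAA, any 2 bases and GAAA again on either strand, stood in the 250 bases before the start of 22 of 36 of these genes (61.1%), and of 16 of the 25 called higher (64.0%). It stood in 3.07% of all promoters, 2.40% of measured genes, 4.88% of genes called higher and 1.67% of genes called lower. The stretches below show it in capitals before IFIT1 and IFIT3, each with 2 matches, and ISG15 and GBP1, each with 1. In GRCh38.p14 they lie at chr10:89392485-89392564 (plus strand), chr10:89327840-89327919 (plus strand), chr1:1013349-1013428 (plus strand) and chr1:89065291-89065370 (minus strand); in IFIT1, IFIT3 and GBP1 the letters are on the opposite strand and read as TTTC repeats.
IFIT1: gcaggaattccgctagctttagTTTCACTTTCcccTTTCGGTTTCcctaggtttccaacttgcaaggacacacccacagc
IFIT3: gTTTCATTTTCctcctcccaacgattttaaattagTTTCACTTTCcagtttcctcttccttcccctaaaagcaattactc
ISG15: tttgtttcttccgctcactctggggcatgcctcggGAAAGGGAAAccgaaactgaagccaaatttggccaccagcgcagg
GBP1: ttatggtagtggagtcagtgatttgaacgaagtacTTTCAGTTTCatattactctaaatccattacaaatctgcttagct

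Several class I antigen presentation genes were higher and several class II genes lower. Of 16 class I and peptide-loading genes 8 were higher and 0 lower (median 1.02), with the peptide transporter TAP1 at 2284 undifferentiated, 9272 at PMA 3 days and 9630.0 at PMA 8 days (4.06-fold higher). HLA-F read 8465 undifferentiated, 27951 at PMA 3 days and 24554 at PMA 8 days (3.30-fold higher). Class I genes are alike in sequence, so single HLA values are uncertain. The class II gene HLA-DRA read 18887 undifferentiated, 6415 at PMA 3 days and 2029 at PMA 8 days (2.94-fold lower). HLA-DPA1 read 14108 undifferentiated, 4536 at PMA 3 days and 1817 at PMA 8 days (3.11-fold lower). HLA-DQA1 was 5.14-fold lower, and HLA-DRB1 read 25338 to 36317, a log2 ratio of 0.52. CIITA, their master regulator, was dim on both arrays (126 and 185). The CD1 genes, which present lipids, were higher in all 4 of CD1A (4.24-fold higher), CD1B (2.02-fold higher), CD1C (3.35-fold higher) and CD1E (7.19-fold higher). The SLAM family receptors SLAMF7, SLAMF8 and SLAMF9 were at least 21.9-fold, at least 19.0-fold and 17.0-fold higher, CD86, the ligand of CD28, 4.34-fold higher (2575 to 11179.9), and CD70, the ligand of CD27, 5.20-fold lower (8272 to 1589.9). In the inflammasome list 7 of 20 were higher and 3 lower, with AIM2, a DNA sensor, at least 5.92-fold higher (124 to 887), and IL1B 2.22-fold higher (889 to 1977). Of the S100 proteins S100B was 74.7-fold higher (214 to 15944) and S100A12 2.88-fold lower (9001 to 3123).

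Among genes of cell death 4 of 29 were higher and 3 lower (13.8% and 10.3%, near the 10.4% and 10.7% of all genes). BCL2A1, a survival protein of myeloid cells, read 82.6 undifferentiated, 1895 at PMA 3 days and 3535 at PMA 8 days (at least 12.7-fold higher). BCL2 read 3667 undifferentiated, 133 at PMA 3 days and 248 at PMA 8 days by its brightest probe set (at least 24.5-fold lower), though its second-brightest had a log2 ratio of 0.11. BIK, which promotes death, was 5.54-fold lower (6515 to 1175). Chromatin-modifying enzymes had 13 of 48 lower and 1 higher (median -0.55): TET1, which oxidizes methylcytosine, was at least 8.49-fold lower (1271 to 70.4), DNMT3B 3.19-fold lower, EZH2, the Polycomb methyltransferase, 2.55-fold lower (6386 to 2505), and SETD7, a lysine methyltransferase, 3.67-fold higher (2676 to 9819). Splicing factors had 6 of 47 lower (12.8%, near the 10.7% of all genes) and 1 higher, MBNL2, which promotes adult splice forms (25.5 to 1067, at least 7.12-fold higher).

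**Figure D4:**
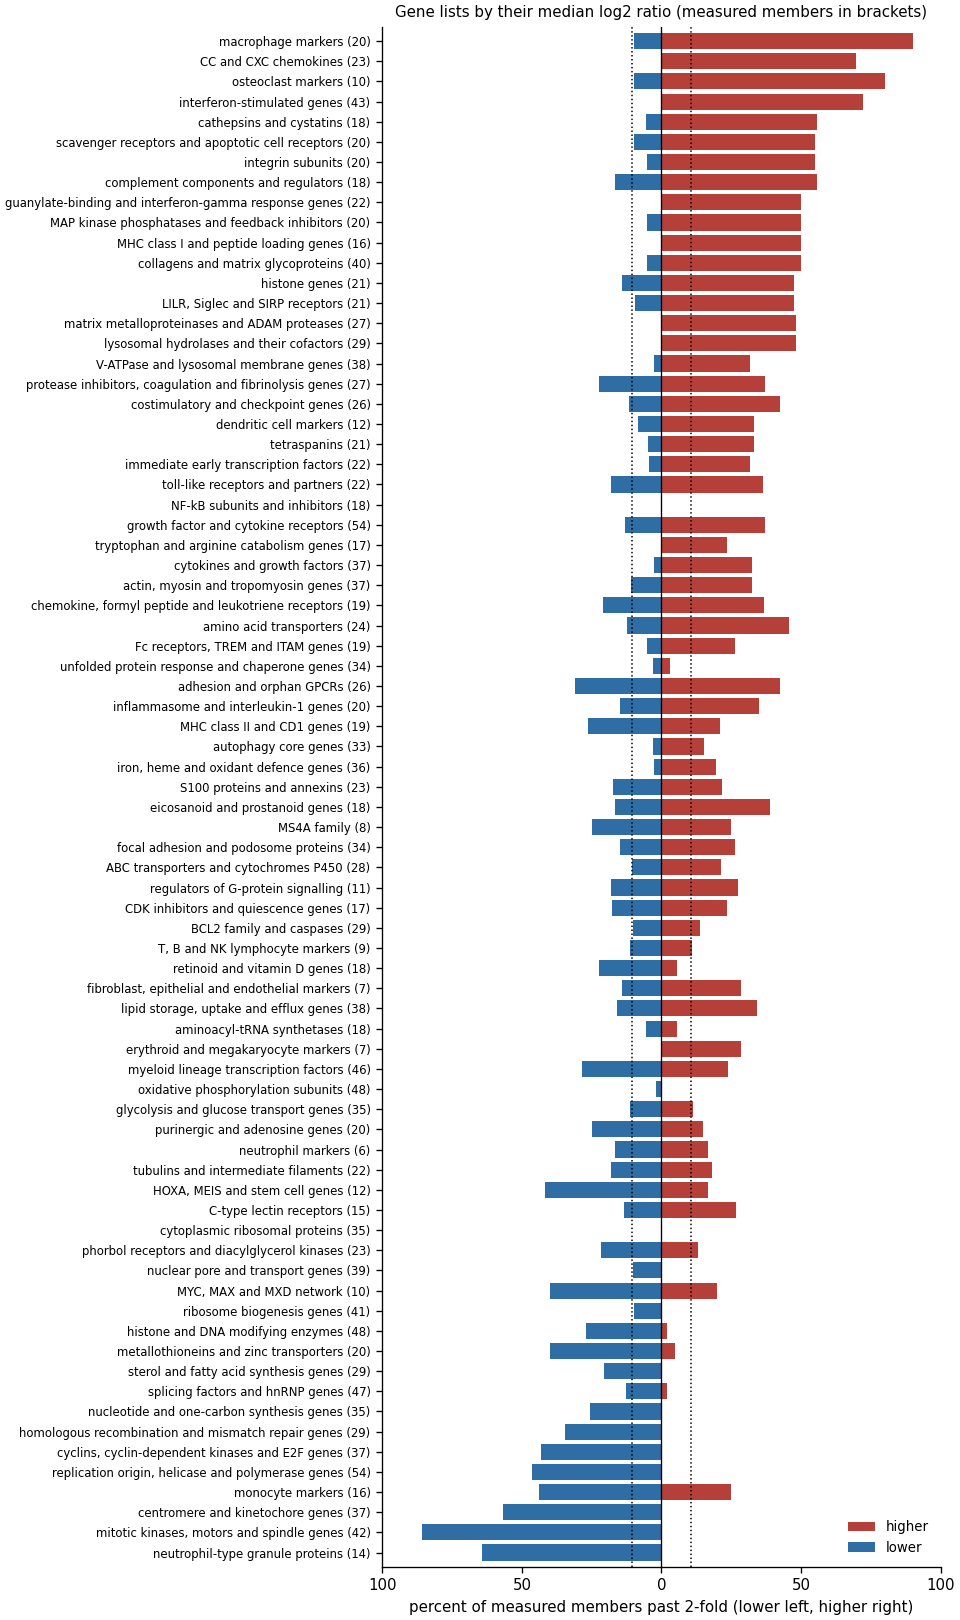
Percent of measured members called higher (red, right) and lower (blue, left) at 2-fold in each of 76 gene lists, ordered by median log2 ratio, with the number of measured members in brackets. Dotted lines mark the 10.4% higher and 10.7% lower among all measured genes, and macrophage markers stand at the top and neutrophil-type granule proteins at the bottom.

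Marker genes are given beside the label. Their lists were written with earlier results of these data known, so they cannot serve as a check of it. Of 25 listed macrophage markers 20 were measured. Of these 18 were higher (90.0%, against 10.4% of all genes) and 2 lower, F13A1 and FOLR2 (10.0%, against 10.7%). At the higher floor FOLR2 had a log2 ratio of -0.72, within 2-fold. C1QB and TIMD4 were under the floor on both arrays. Macrophage markers summed to 25124 undifferentiated and 173070 at PMA 3 days. Monocyte markers summed to 257587 and 157856, with 7 of 16 lower and 4 higher, among the latter CD14. Osteoclast markers had 8 of 10 higher, DCSTAMP, a fusion protein of osteoclasts and giant cells, among them (4.39 to 1077, at least 7.19-fold higher). CA2, a carbonic anhydrase, was the 1 lower member (60185 to 13796, 4.36-fold lower), and CALCR, their calcitonin receptor, was at the floor on both. Dendritic cell markers had 4 of 12 higher, all of them CD1 genes, and 1 lower, BATF3, a factor of cross-presenting dendritic cells (842 to 336, 2.50-fold lower), with CCR7, XCR1, CD207 and CLEC4C at the floor on both. Of 16 lymphocyte markers with a probe set, 7 were above the floor undifferentiated and 9 at PMA 3 days, with summed signals of 4083 and 4765. GNLY (granulysin) was the 1 higher (138 to 1296, at least 8.65-fold higher) and NKG7 the 1 lower (587 to 256, 2.29-fold lower), while CD3D, CD3E, CD8A and MS4A1 were at the floor on both. Of 18 fibroblast, epithelial and endothelial markers 5 were above the floor on each array, with sums of 24633 and 26584. FAP, a fibroblast protease, was at least 14.5-fold higher (102 to 2168) and COL1A1 5.03-fold higher by its brightest probe set (464 to 2337), with log2 ratios of -0.39 to 2.33 and a median of -0.029 over its 4 informative probe sets, and MUC1 was 3.65-fold lower (1745 to 478). COL3A1, LUM, EPCAM, VWF and CDH5 were at the floor on both. Neutrophil markers summed to 4792 and 8755, with 8 of 14 at the floor on both, MMP8 higher and CXCR2 lower. Erythroid and megakaryocyte markers summed to 2012 and 5330, with 5 of 12 at the floor on both, GATA1 among them, and PPBP and PF4 (80.7 to 409, at least 2.73-fold higher) higher. The part of other cell types in these results was not tested. CD68, a general macrophage marker, has no probe set listed with that gene alone and was not analysed here.

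Some neighbouring genes stood on the same side. In the order of measured genes along the RefSeq assembly, 16 runs of at least 4 consecutive genes were higher and 8 were lower. On chromosome 10 CH25H (cholesterol 25-hydroxylase), LIPA (lysosomal acid lipase), IFIT2, IFIT3, IFIT1 and IFIT5 were all higher, LIPA from 17149.7 to 43121 and CH25H from 40.1 to 383. On chromosome 11 there were 6 metalloproteinase genes in a row and on chromosome 4 a row of 7 chemokine genes. On chromosome 14 genes of unlike function adjoined, FLRT2, an adhesion molecule (299 to 3692, 12.3-fold higher), GALC, GPR65, KCNK10, SPATA7 and PTPN21. A run needs every member called, and some calls depend on the processing. With the higher floor KCNK10 and PTPN21 had log2 ratios of 0.20 and 0.45. With the second-brightest probe set SPATA7 had one of 0.46. On chromosome 2 ITGAV, FAM171B, CALCRL and TFPI were higher, CALCRL, a receptor subunit for adrenomedullin, from 139.5 to 334 (at least 2.23-fold higher). With the higher floor CALCRL had a log2 ratio of 0.36. Lower runs held 7 metallothionein genes on chromosome 16, the protease genes AZU1, PRTN3 and ELANE with PLPPR3 and CFD on chromosome 19, and the zinc finger genes ZNF680, ZNF107, ZNF138 and ZNF273 on chromosome 7. By their second-brightest probe sets ZNF107 and ZNF273 had log2 ratios of -0.06 and -0.39. Paralogs in a row can share probe sequence, so members of one family are not independent readings.

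**Figure D5:**
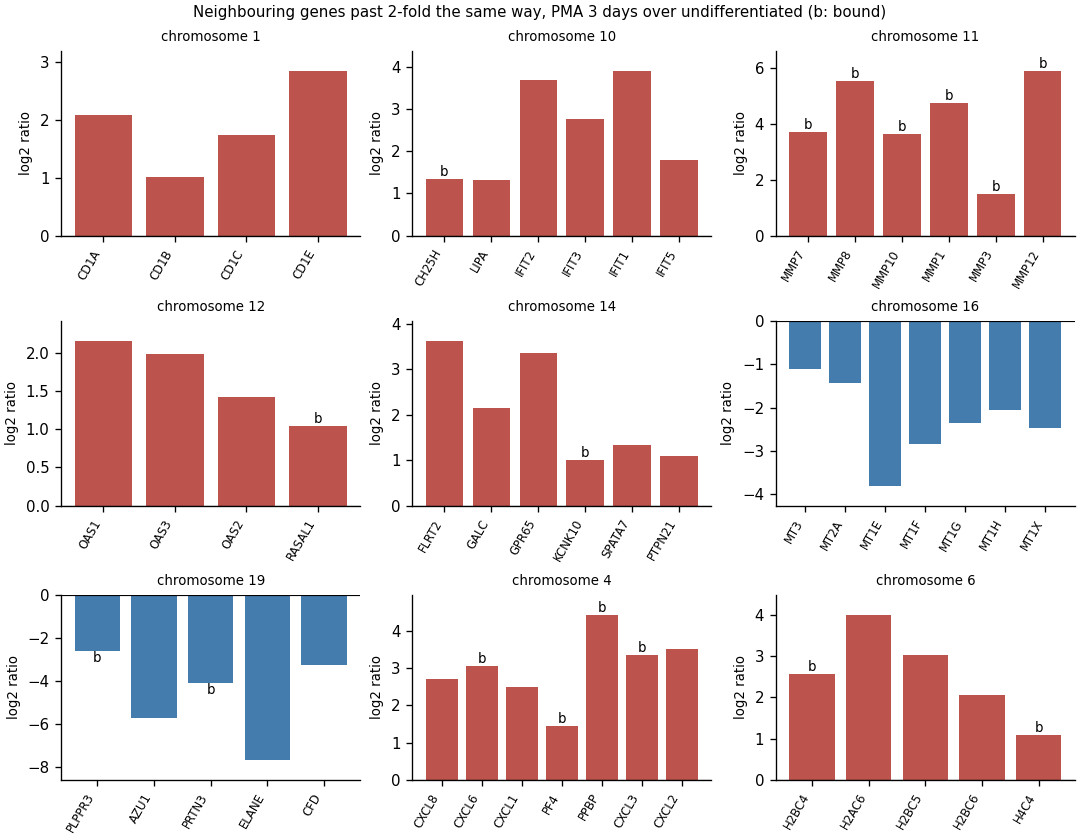
Log2 ratio of PMA 3 days over undifferentiated for the genes of 9 runs of neighbours, in order along each chromosome, red where higher and blue where lower, with b marking a bound. The chromosome 19 run reaches below -7 at ELANE, and the chromosome 14 run holds 6 genes of different families. Of that run KCNK10, SPATA7 and PTPN21 fell within 2-fold under some alternatives.

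Shares of called genes differed by kind of transcript and by chromosome, given here as counts with no test. Of 12229 measured protein-coding genes 10.8% were higher and 10.5% lower, of 819 long non-coding RNAs 5.25% and 13.4%, and of 195 transcribed pseudogenes 5.64% and 14.4%. Of probe sets listed with no gene 4.40% were higher and 12.8% lower. On chromosome 19, 4.91% of 936 measured genes were higher and 12.7% lower, and on chromosome 16, 4.97% of 583 and 11.8%. On chromosome 4 the shares were 15.8% and 11.5% of 488. The median log2 ratio was -0.27 on chromosome 19, -0.22 on chromosome 16 and -0.06 on chromosome 4.

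In 8 genes, probe sets above the floor on both arrays passed 2-fold in opposite directions. PRDX2, a peroxiredoxin, read 16487 to 5220.2 signal units by 1 probe set and 168 to 431 by another, and SUGT1, a co-chaperone, read 1018 to 281 and 5785 to 12133. Values of such genes depend on the probe set taken.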

How the data were processed

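The deposited values are MAS5 signals, an intensity per probe set, made by the authors per the submitters' processing notes; version and settings are not given in the sources used here. They were checked to be linear, with a trimmed mean of 1000 on each array. Probe sets were named from the platform table (41091 with 1 gene, 1801 with several and 11721 with none), and 41037 were matched by Entrez ID to the RefSeq gene table of GRCh38.p14.

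Signals were raised to the floor of 149.8, log2 ratios were taken of the brightest probe set of each gene and called at 2-fold. No test was possible with 1 array per condition. Depth has no counterpart on arrays; their number limits the precision. The members and the 76 gene lists, written by hand from general knowledge, were chosen with earlier results of these data known. Lists share members.

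The genes named are, in each direction, the 20 largest ratios measured on both arrays and the 12 largest bounds, where informative probe sets went the same way; up to 8 called and the first 4 members of each list; the 8 genes with opposed probe sets; and runs of neighbours. Named outside that rule, after their values were seen, were ADAM9, ASAH1, CDC20, CDK1, CIITA, CNIH3, DUSP7, E2F1, EGR1, ETS1, F3, FOLR2, GATA2, GEM, H1-10, H2AX, H2AZ2, IFIH1, IFNB1, IFNGR1, IGFBP3, IKZF1, IL10, IL6R, IRF1, IRF7, IRF9, IRX3, ITGAL, ITGB1, JUN, JUNB, LAMP1, LAMP2, MAF, MCOLN1, MKI67, MPO, MYO1G, NCL, PCNA, RB1, RIGI, RNASE2, TFE3, TFEB, TIMD4, TNF, TNFAIP3, TOP2A and ZEB1, besides markers at the floor. A gene among the largest increases is not reported here. Alternatives were 3 floors or offsets, 2 filters, 3 choices of probe set and 3 scalings. The steps were tested on simulated data. The tools were numpy 2.4.6, pandas 2.3.3 and matplotlib 3.10.9 under Python 3.11.15.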

Additional observations from a re-analysis of the deposited data

How the results depend on the processing

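The counts of 1383 higher and 1429 lower genes stayed within 1.5 times under 9 of 11 alternatives in both directions. Among those 9, leaving out the filter on low values could not change the counts, since genes at the floor on both arrays have equal values. With the second-brightest probe set, which only 6502 genes have, they were 631 and 647. Scaling to the poly-A controls gave 976 higher and 2409 lower genes (28.8% of calls higher, median log2 ratio of all genes -0.39), quantile normalization 1513 and 1232 (55.1%, median -0.05) and setting the median gene to 0 gave 1636 and 1154 (58.6%). Of 76 list medians 59 kept 1 sign under all scalings, and the other 17, at most 0.301 in size as reported, had both signs. No median of at least 1 in size changed sign under any alternative. Of the genes named, 325 were called, and 271 of them stayed past 2-fold the same way under every alternative that gave them a value. The 2 filters leave the ratio of a gene as it was, so they could not remove a call. With the second-brightest probe set 145 of 177 stayed, with the median over probe sets 312 of 325, without _x_at and _s_at probe sets 238 of 246, and with the higher floor 315 of 325. The second-brightest probe set moved 108 of 192 log2 ratios by more than the pooled SD of 0.44, besides those reversed, and the median over probe sets moved 93 of 356. Direction turned with the second-brightest probe set for A2M (log2 ratio -0.28), BCL2 (0.11), PRKCA (0.024) and COL1A1 (-0.39), for COL1A1 also with the median over probe sets (-0.029), and for IGF2BP3 without _x_at and _s_at probe sets (-0.28). Within 2-fold with the second-brightest were BHLHE41, BMP8B, CALCRL, CD1E, CHST15, CNTN4, CST3, CX3CR1, CXCL2, DUSP1, DUSP7, FERMT1, GATA2, H2AX, HLA-DQA1, HMGA2, IFIH1, ITGA7, MYH10, PLIN2, RGS16, SLC40A1, SPATA7, SQSTM1, TDO2, TFE3, ZNF107 and ZNF273. Without _x_at and _s_at probe sets CXCL2, FN1, HMGA2, RASGRP2, SQSTM1, ZNF107 and ZNF273 fell within 2-fold, and under poly-A scaling CALCRL, CD1B, FAM171B, FOS, IL1B, ITGB1, KCNK10, KLF6, MCOLN1, PTPN21 and TYROBP. The causes were not tested. No paired analysis was possible because each condition was 1 array.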

Other observations

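Of 34 measured unfolded protein response and chaperone genes 1 was higher, DNAJB9, a chaperone of the endoplasmic reticulum (2347 to 6510.2, 2.77-fold higher), and 1 was lower, EDEM1, which hands misfolded glycoproteins to degradation (14337 to 5675, 2.53-fold lower). Among 18 retinoid and vitamin D genes 4 were lower (22.2%, against 10.7% of all genes), among them DHRS9, described above, and VDR, the vitamin D receptor, at 1534 undifferentiated, 617 at PMA 3 days and 548 at PMA 8 days (2.48-fold lower), and 1 was higher, TGM2, a transglutaminase (130.0 to 629, at least 4.20-fold higher).

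Among genes under the floor after PMA, the largest bounds included adhesion genes best known from neurons: CNTN4, a contactin, read 1574 undifferentiated, 104 at PMA 3 days and 96.4 at PMA 8 days (at least 10.5-fold lower), and NEGR1, a neuronal growth regulator, 1572 undifferentiated, 49.7 at PMA 3 days and 108 at PMA 8 days (at least 10.5-fold lower). Of 261 genes past 8-fold in either direction, 137 were in none of the 76 lists.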
